A study of Homo sapiens with 8 samples.

Results

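The FLI1 sites described here are peaks that passed in VAL and had no counterpart in OCI-Ly1. They are the peaks of VAL replicate 2 with a -log10 q of at least 3 for which OCI-Ly1 replicate 2 had no overlapping peak, by 1 bp or more, at a -log10 q of 1 or above. The rule found 2584 sites among 6474 passing peaks of VAL replicate 2 (39.9%), which are themselves 0.656% of the 986629 peaks listed for that library. The other 3890 passing peaks are called shared peaks. FLI1 was immunoprecipitated with a rabbit polyclonal antibody from OCI-Ly1 and VAL, both established lines of germinal center B-cell (GCB) diffuse large B-cell lymphoma, without any treatment, in 2 replicates per line, with input DNA as a further sample type that was not analysed here. Each condition is 1 line, so a difference between OCI-Ly1 and VAL is one between these lines. OCI-Ly1 replicate 1 gives no sites, since its peaks are 37 intervals of which 33 are longer than 1 Mb, so absence in OCI-Ly1 rests on 1 library. VAL replicate 1 did not enter the rule and serves as the independent readout.

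FLI1 is a transcription factor of the ETS family, whose DNA-binding domain recognizes a GGAA core in a preferred CCGGAAGT context. In blood cells, ETS factors bind CpG-rich promoters that are open in most cells, and also distal elements that differ between cell types. At distal elements they often bind beside other factors, among them bHLH proteins such as E2A, which bind E-boxes (CANNTG). In B cells, FLI1 is known to act in receptor signaling and differentiation.

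Short stretches of strong sites are shown first, to let the FLI1 core, which most of the sites lack, and an arrangement seen at several of the strongest be read beside the values below. Each is 30 bases long, read 5′ to 3′ from GRCh37 on the strand of the motif. In the first set, capitals mark the FLI1 core (CCGGAAA or CCGGAAG), which lay within 50 bp of the summit, at the 6 strongest sites of this kind within 1 kb of a TSS. TSS stands for transcription start site, and each line carries the name of the gene.
USP30: ctcccagggggaCCGGAAGtagctgccccc
P2RX1: cttgttgggcctCCGGAAAcaggagttgtt
CYB561: gtgtctccgggaCCGGAAGtggcgtacgcg
RPL32: aaagagccggagCCGGAAGtgcttgccttt
WDR1: gctcgccccgccCCGGAAGtgacgtatagc
MYO7B: caggacggggccCCGGAAGcagcccccgca
These lie at chr12:109490313-109490342 (minus strand), chr17:3819867-3819896 (plus), chr17:61523720-61523749 (plus), chr3:12883098-12883127 (minus), chr4:10118639-10118668 (plus) and chr2:128390830-128390859 (plus).

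In the next set, the same core lay more than 3 kb from any TSS, and the name is that of the gene with the closest TSS.
LINC01342: ctcagaggagggCCGGAAAcaggcctgggc
ZNF469: agagctctggggCCGGAAGtgcaaagtcaa
CD99: cattaccctgtcCCGGAAAcatctggagct
MIR4432HG: gccctactagaaCCGGAAGagctagcaagc
They lie at chr1:1079572-1079601 (minus), chr16:88381780-88381809 (plus), chrX:2625658-2625687 (plus) and chr2:60593409-60593438 (plus). The first 2 are intergenic, and the others lie in introns of CD99 and MIR4432HG.

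The last set shows an arrangement that was noticed when the sequences of 23 strong sites were read: GGAA, 1 base, and an E-box on the same strand. Capitals mark the GGAA and the E-box. These are the 9 strongest sites that hold it.
MYCLP2: tgttgtaacaGGAAgCACCTGgacagcaaa
CMTM7: gcagaggggaGGAAaCAGATGgctgtccag
SH3BP5: gagccaggcaGGAAaCACCTGtctggtggc
ENSG00000248831: cgttgacacaGGAAgCAGCTGactctggca
CBFA2T3: gggaggggcgGGAAgCACCTGgcagtttca
AC073127.1: tgttggcccaGGAAaCACCTGgatggcagg
FAM163B: gggtggggcaGGAAaCACCTGgcagcagag
ENSG00000224818: cctgcccacaGGAAaCAGCTGggtcccagg
ADAM19: ccgccacccaGGAAaCACCTGtgtctgcac
They lie at chrX:57978503-57978532 (minus), chr3:32443114-32443143 (minus), chr3:15369700-15369729 (plus), chr4:78275878-78275907 (minus), chr16:89034678-89034707 (plus), chr7:102650464-102650493 (plus), chr9:136450347-136450376 (plus), chr1:201420200-201420229 (minus) and chr5:156914540-156914569 (plus). The MYCLP2 and ENSG00000224818 sites are intergenic, that of FAM163B lies in its promoter and the others lie in introns. A match describes the letters and does not show a bound site. Each printed sequence occurs once in the genome except that of ENSG00000248831, which occurs 2 times, and both copies are sites described here.

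The number of reads at a summit was inferred from the fold enrichment and the p-value of each peak. The sites absent in OCI-Ly1 were mostly weak. Their median was 6 reads, the lowest number with which a peak of VAL replicate 2 could pass, and 1347 of 2584 sites (52.1%) had exactly 6. The third quartile was 8 reads and the highest value 78. The median -log10 q was 3.87, with quartiles of 3.40 and 4.59 and a maximum of 86.8, and 78.8% lay below 5. Shared peaks had a median of 9 reads and a median -log10 q of 6.16. These are the values the sites were chosen by and are given as a description.

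Most of the places called absent in OCI-Ly1 still had a weak peak there. A listed peak of OCI-Ly1 replicate 2 with a -log10 q below 1 lay under 1726 of the 2584 sites (66.8%), with a median of 3 reads. The highest value under a site was 106 reads, so a -log10 q below 1 does not always mean few reads. No peak was listed there for the other 858. A peak of OCI-Ly1 replicate 2 needed at least 4 reads to reach a -log10 q of 1, so the typical site had 6 reads in one line and 3 or fewer in the other. The exact Poisson 95% interval of 6 reads is 2.20 to 13.1 and that of 3 reads is 0.619 to 8.77, and these overlap. With a place that had no listed OCI-Ly1 peak taken as 1 read, the intervals of both lines did not overlap at 81 sites (3.13%). The rule chose the sites on these same libraries, and reads were not scaled for depth, so this count is a description. Of these 81, 31 lay in promoters, and 21 overlapped a passing peak of VAL replicate 1.

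At the edges of the rule, the weakest site had a -log10 q of 3.004 and the strongest peak left out had 2.997. There were 107 sites between 3 and 3.1, and 102 peaks of VAL replicate 2 between 2.9 and 3. On the OCI-Ly1 side, the highest -log10 q under a site was 0.986 and the lowest under a shared peak was 1.0004, with 11 sites from 0.9 to 1 and 18 shared peaks from 1 to 1.1. A further 533 sites had an OCI-Ly1 peak with a -log10 q from 0.8 to 0.9.

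Next, the support in VAL replicate 1 was examined. Of the 2584 sites, 41 (1.59%, Wilson 95% interval 1.17 to 2.15%) overlapped a passing peak of VAL replicate 1, against 632 of 3890 shared peaks (16.2%, 15.1 to 17.4%). The difference was -14.7 percentage points (Newcombe 95% interval -15.9 to -13.4). The background was 10.4% for all passing peaks of VAL replicate 2 and 0.089% for all its listed peaks. At a -log10 q of at least 1 in VAL replicate 1, 176 sites (6.81%) had support, against 35.3% of the shared peaks. Any listed peak of VAL replicate 1 lay under 752 sites (29.1%) and under 62.0% of the shared peaks, while the listed peaks of that library cover 2.56% of the genome. The mirror set, 1662 passing peaks of OCI-Ly1 replicate 2 for which VAL replicate 2 had no peak at a -log10 q of 1 or above, came close to the sites in this library. Of these, 0.842% overlapped a passing peak of VAL replicate 1 and 23.5% a listed one, so that the VAL sites were 0.744 points (0.042 to 1.398) and 5.64 points (2.92 to 8.30) higher. VAL replicate 1 needed at least 8 reads for a passing peak. Intervals here and below cover counting error only, since the peaks of 1 library are not replicates.

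Support was also lower within classes of reads. Among peaks with exactly 6 reads, 1 of 1347 sites (0.0742%) and 8 of 587 shared peaks (1.36%) had a passing peak in VAL replicate 1, and 24.0% and 40.03% had a listed one. Among peaks with 17 or more reads in VAL replicate 2, 17 of 52 sites (32.7%, 21.5 to 46.2%) had a passing peak in VAL replicate 1, against 340 of 574 shared peaks (59.2%, 55.2 to 63.2%), a difference of -26.5 points (-38.4 to -12.4). That class has no upper bound, and the shared peaks in it reached higher reads than the sites, which ended at 78. The interval of the difference stayed below 0 in all 6 classes of reads, for passing peaks and for listed ones.

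**Figure D1:**
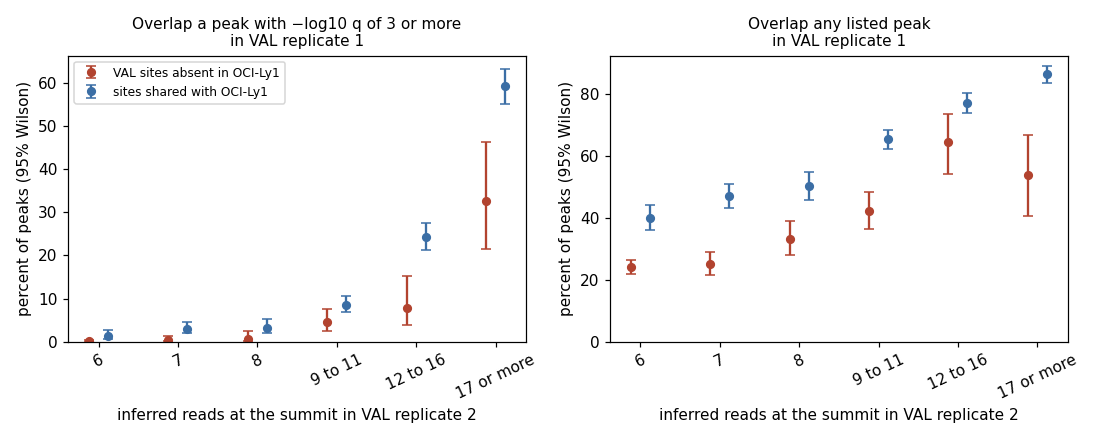
Percent of peaks of VAL replicate 2 supported in VAL replicate 1, by the inferred reads at the summit, for the sites absent in OCI-Ly1 and for the shared peaks. Bars are 95% Wilson intervals, and the sites lie below the shared peaks in all 6 classes, with 32.7% against 59.2% passing at 17 or more reads.

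Sites absent in OCI-Ly1 were less often promoter sites. The centre of 1216 of them lay within 3 kb of a TSS (47.1%, 45.1 to 49.0%), against 3150 of the shared peaks (81.0%, 79.7 to 82.2%), a difference of -33.9 points (-36.2 to -31.6). Introns held 763 sites (29.5% against 9.23%, a difference of 20.3 points, 18.3 to 22.3) and intergenic sequence 543 (21.01% against 8.82%, a difference of 12.2 points, 10.4 to 14.0). Only 33 sites lay in exons and 29 in UTRs. Of all peaks listed in VAL replicate 2, passing or not, 23.3% lay in promoters. The difference in the promoter share held in each class of reads and was -34.4 points (-47.0 to -20.3) at 17 or more reads.

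The distance to the TSS showed the same contrast. Within 500 bp of a TSS lay 658 sites (25.5%) and 2701 shared peaks (69.4%). The 1368 distal sites had a median distance of 11235 bp to the closest TSS, and 131 lay more than 50 kb away. The mirror set had a promoter share of 48.8%, and the difference from the VAL sites was -1.74 points (-4.81 to 1.34). A passing summit of OCI-Ly1 replicate 2 lay within 3 kb of 94 sites (3.64%), and the median distance was 102824 bp. The rule leaves out peaks that overlap an OCI-Ly1 peak, so the low share is partly set by it.

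**Figure D2:**
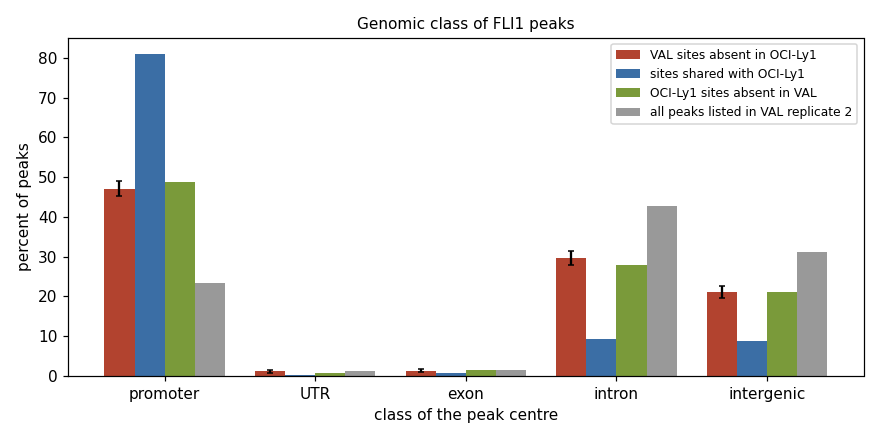
Percent of peaks by the class of their centre, for the 2584 VAL sites (error bars are 95% Wilson intervals), the shared peaks, the 1662 OCI-Ly1 sites absent in VAL and all listed peaks of VAL replicate 2. Promoters hold 47.1% of the VAL sites and 81.0% of the shared peaks, and introns 29.5% and 9.23%.

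The sequence under the summits differed as well. The FLI1 core, searched on both strands within 50 bp of the summit, was present at 209 sites (8.09%, 7.10 to 9.20%) and at 1629 shared peaks (41.9%), a difference of -33.8 points (-35.6 to -31.9). In promoters the shares were 12.1% and 47.5%, and at distal places 4.53% and 17.8%. A window of the same length 250 bp to the right of each summit held the core at 0.89% of the sites, and the listed peaks of VAL replicate 2 that did not pass held it at 0.794%. Around all TSSs of protein coding genes the core was found in 6.74% of windows of this length. The core was more frequent at sites with more reads, from 3.79% of sites with 6 reads to 22.2% of those with 12 to 16, and was 13.5% (6.68 to 25.3%) at 17 or more. The shared peaks were above the sites in each class. Where a site held the core, its median distance from the summit was 16 bp in promoters and 18 bp at distal places. The search itself allowed no more than 50 bp.

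GGAA alone, which is part of the core and common by its length, was found at 61.2% of the sites and in 61.2% of their 250 bp windows, while 87.1% of the shared peaks held it. In promoters the sites were above their own window (68.1% against 61.6%) and at distal places below it (55.1% against 60.8%). CCGGAAGT, the full preferred context, was present at 55 sites (2.13%) and 16.4% of the shared peaks. No site held 3 GGAA in a row (Wilson upper limit 0.148%), the repeat that the EWS-FLI1 fusion of Ewing sarcoma is known to bind. That repeat was also absent from the shared peaks and found at 0.0417% of coding TSSs.

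Among the strongest sites, another arrangement was more frequent than the FLI1 core. GGAA followed by 1 base and an E-box was held by 9 of the 15 strongest sites, and the core by 2 others of the 15. It was searched after the sequences of 23 sites had been read, so the counts are a description. Of the 412 sites with 9 or more reads, 70 held the FLI1 core and 51 held this arrangement (12.4%, 9.54 to 15.9%). The other 21 arrangements of a GGAA and an E-box, with 0 to 10 bases between them and the E-box on either side, were found at 0.243 to 1.94% of these sites. Without the 23 sites first read, the share was 44 of 389 (11.3%).

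**Figure D3:**
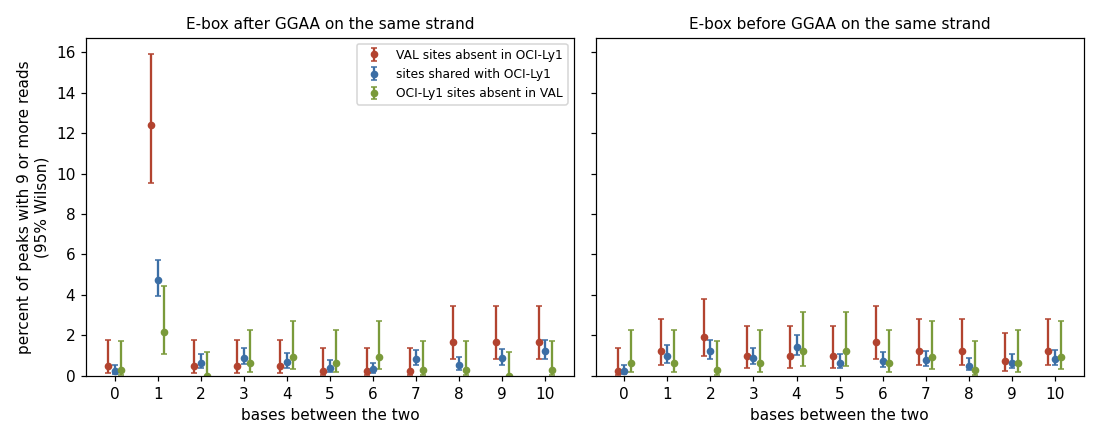
Percent of peaks with 9 or more reads that hold a GGAA and an E-box on the same strand within 50 bp of the summit, by the number of bases between them and by the side of the E-box. Bars are 95% Wilson intervals; the spacing of 1 base with the E-box after GGAA stands out, at 12.4% of the VAL sites, 4.76% of the shared peaks and 2.18% of the OCI-Ly1 sites absent in VAL.

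Shared peaks with 9 or more reads held this arrangement at 105 of 2206 places (4.76%), a difference of 7.62 points (4.62 to 11.2). Since such sites are more often distal, the distal peaks were compared by themselves, and there the shares were 15.5% of 213 sites and 7.54% of 411 shared peaks (difference 7.95 points, 2.77 to 13.8). In promoters they were 9.05% and 4.12% (difference 4.92 points, 1.52 to 9.79). The OCI-Ly1 sites absent in VAL with 9 or more reads held it at 7 of 321 places (2.18%), 10.2 points below the VAL sites (6.58 to 13.9). Over all 2584 sites, most of them with few reads, the share was 3.48% and did not differ from the 3.65% of the shared peaks beyond counting error (difference -0.17 points, -1.07 to 0.78). The window 250 bp away held it at 0.232% of the sites, the listed peaks that did not pass at 0.454% and the windows around coding TSSs at 0.493%.

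**Figure D4:**
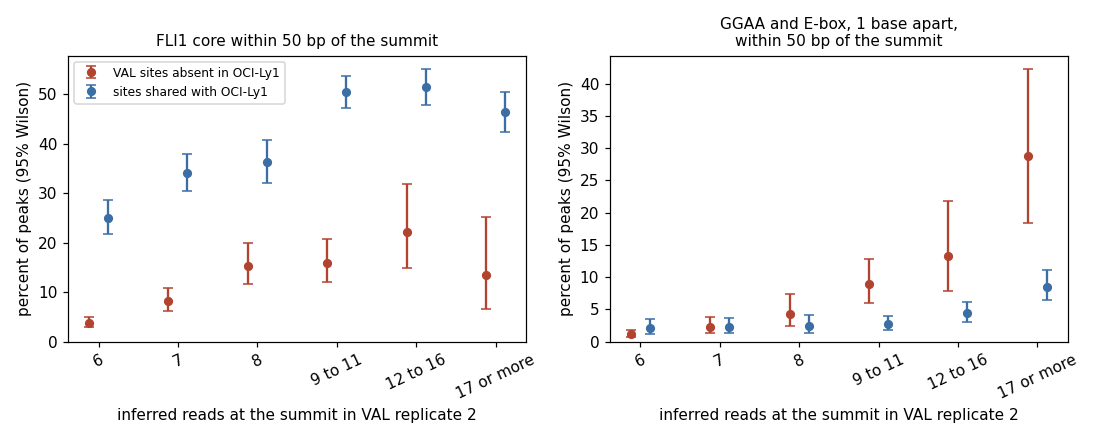
Percent of peaks that hold the FLI1 core (left) or GGAA, 1 base and an E-box (right) within 50 bp of the summit, by the inferred reads in VAL replicate 2, with 95% Wilson intervals. The core is less frequent at the VAL sites in all classes, while the arrangement with the E-box reaches 28.8% of the sites and 8.54% of the shared peaks at 17 or more reads.

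Support in VAL replicate 1 was then set beside the arrangement with the E-box. Of the 90 sites that held it, 33 (36.7%, 27.4 to 47.0%) overlapped a peak of VAL replicate 1 with a -log10 q of at least 1, against 143 of the 2494 others (5.73%). Among sites with 9 or more reads the shares were 24 of 51 (47.1%) and 78 of 361 (21.6%), a difference of 25.5 points (11.7 to 39.4). For the FLI1 core the same comparison gave 32.9% with it and 23.1% without, a difference of 9.76 points whose interval, -1.19 to 22.1, includes 0. Part of the 23 sites first read had been taken for their support in VAL replicate 1, and without all 23 the shares for the arrangement were 17 of 44 (38.6%) and 67 of 345 (19.4%), a difference of 19.2 points (5.54 to 34.4). The class of 9 or more reads has no upper bound. Support rose from 17.4% of sites with 9 to 11 reads to 48.1% at 17 or more, and the arrangement from 8.89% to 28.8%. Sites with and without it therefore also differed in reads, and the part of reads in these differences was not tested. Of the 90, 82 held no FLI1 core and 58 were distal. The E-box read CAGCTG at 32 of them, CACCTG at 27 and CATCTG at 9.

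Of the other motifs searched, the E2A motif CAGCTG was present at 12.7% of the sites and in 6.08% of their 250 bp windows, with 10.1% at the shared peaks (difference 2.55 points, 0.978 to 4.17) and 7.15% at coding TSSs. This motif is part of the arrangement above where the E-box reads CAGCTG. The motif of PU.1, another ETS factor (GAGGAAGT, which includes a GGAA), was found at 1.63% of the sites and 2.34% of the shared peaks (difference -0.714 points, -1.39 to -0.00448), and in 0.849% of the windows at coding TSSs. The EBF1 motif (CCCNNGGGA) was at 3.83% and 3.98%, with 2.39% at coding TSSs, and the RUNX motif (TGTGGTT) at 1.39% and 1.44%, with 1.298% there. Differences for EBF1 and RUNX over all places had intervals that include 0. At distal places, RUNX was at 1.68% of the sites and 3.78% of the shared peaks (difference -2.10 points, -3.83 to -0.682). The NF-kB motif (GGGANTTCC) was at 0.851% of the sites and 1.90% of the shared peaks (difference -1.05 points, -1.61 to -0.471), with 0.586% at coding TSSs. The IRF motif (GAAANNGAA) was at 1.32% and 2.11% (difference -0.792 points, -1.42 to -0.134), with 2.76% at coding TSSs. The NRF1 motif (GCGCATGCG) was at 0.155% and 0.566% (difference -0.411 points, -0.715 to -0.102), with 0.735% there. By region, the interval excluded 0 only at distal places for NF-kB, only in promoters for IRF, and in neither for NRF1. The intervals for the AP-1 motif (TGANTCA), at 1.12% and 0.823%, and the octamer (ATGCAAAT), at 0.194% and 0.283%, include 0, and 1.99% and 0.305% of the windows at coding TSSs held them.

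Base composition lay between that of the shared peaks and that of weak peaks. Within 100 bp of the summit, the GC content of promoter sites was 63.1% ± 8.76 (SD, n = 1216), against 67.1% ± 7.63 at shared promoter peaks and 52.1% at listed promoter peaks that did not pass. Promoter sites held 12.05 CpGs on average, against 18.7 at shared promoter peaks. At distal sites the GC content was 58.1% ± 7.21 (SD, n = 1368), against 61.7% at distal shared peaks.

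The strongest sites were largely supported in VAL replicate 1. Of the 15 with the highest -log10 q, 10 had a passing peak in VAL replicate 1 and 13 had a listed one, against 1.59% and 29.1% of all sites. Distal places held 9 of the 15, near the share over all sites (1368 of 2584). The strongest, at chr17:41437597-41438786 in LINC00910, 537 bp from a TSS, had 54 reads (VAL replicate 2), 11 reads (VAL replicate 1) and 4 reads (OCI-Ly1 replicate 2). Its own background was 0.435 reads, against a median of 0.359 over all sites. It belongs to a group of 3 sites with a median background of 2.87 reads. The intergenic site at chr1:1079312-1080807, 7663 bp from the TSS of LINC01342, had 30, 19 and 3 reads in the same order and held the FLI1 core.

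Several of the 15 lay in introns. In an intron of CMTM7, a membrane protein linked to B cell receptor signaling, the site at chr3:32442836-32443453 was 9614 bp from the TSS and had 27 reads (VAL replicate 2), 24 reads (VAL replicate 1) and 3 reads (OCI-Ly1 replicate 2). SH3BP5, which encodes a binding partner and inhibitor of BTK, held a site at chr3:15369538-15369925, 3838 bp from its TSS, with 24, 13 and 2 reads. In CBFA2T3, a corepressor of the ETO family that partners with E proteins, the site at chr16:89034432-89034943 had 22 reads in both VAL libraries and no listed peak in OCI-Ly1. FBXL13, an F-box gene, held the site next to AC073127.1 (chr7:102650255-102650976), with 21 reads for VAL replicate 2, 25 for VAL replicate 1 and no listed peak in OCI-Ly1. All 4 of these sites are among the sequences with the E-box shown above.

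A pair of sites had their closest coding TSS at CXCL13, the chemokine gene whose product draws B cells into follicles, although both lie in an intron of CCNG2. The site at chr4:78275740-78276303, 156885 bp from the CXCL13 TSS, had 21 reads (VAL replicate 2), 17 reads (VAL replicate 1) and 4 reads (OCI-Ly1 replicate 2). The site at chr4:78288244-78289240, 144165 bp from that TSS, had 22 and 19 reads and no listed peak in OCI-Ly1. The 30 bases printed above are the same at both, so they are not independent examples of the arrangement.

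**Figure D5:**
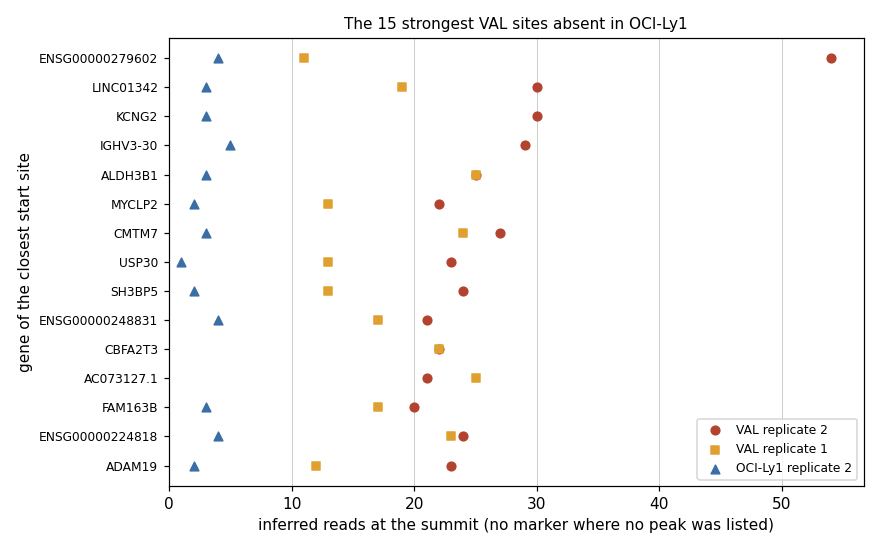
Inferred reads at the summit in VAL replicate 2, VAL replicate 1 and OCI-Ly1 replicate 2 for the 15 sites with the highest -log10 q, which were selected for this value, from the strongest at the top. Markers of both VAL libraries coincide at ALDH3B1 and CBFA2T3, no VAL replicate 1 peak was listed at KCNG2 and IGHV3-30, and OCI-Ly1 replicate 2 stays at 5 reads or fewer.

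CD99, a surface glycoprotein, had the strongest support in VAL replicate 1. Its intronic site at chrX:2625547-2625820, 9731 bp from the TSS, reached a -log10 q of 18.6 with 17 reads in VAL replicate 2, and of 16.5 with 20 reads in VAL replicate 1, over 3 reads in OCI-Ly1 replicate 2. MIR4432HG, the host gene of a microRNA, held a site with the FLI1 core at chr2:60593291-60593620 and 20, 18 and 3 reads. This site lies 86760 bp from the TSS of BCL11A, a zinc finger factor of B cells. ELAPOR1 had the opposite balance, with 10 reads in VAL replicate 2 and a -log10 q of 5.003 there, but 15 reads and 9.38 in VAL replicate 1. An intergenic site 18715 bp from the TSS of NFATC2, a calcium-regulated factor of lymphocytes, had 14 and 16 reads and no listed peak in OCI-Ly1.

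Of the promoter sites, that of ALDH3B1, an aldehyde dehydrogenase gene, had the highest -log10 q in VAL replicate 1, at 9.82 (chr11:67776229-67776631, 382 bp from a TSS). It had 25 reads in each VAL library and 3 in OCI-Ly1 replicate 2. FAM163B had 20 reads (VAL replicate 2), 17 reads (VAL replicate 1) and 3 reads (OCI-Ly1 replicate 2). USP30, which encodes a mitochondrial deubiquitinase, held a site 35 bp from its TSS with 23, 13 and 1 reads, and here the VAL replicate 1 peak did not pass (-log10 q 2.36). KCNG2, a potassium channel subunit gene, had 30 reads in VAL replicate 2 and 3 in OCI-Ly1 but no listed peak in VAL replicate 1. IGHV3-30 had 29 reads, 5 in OCI-Ly1 and none listed in VAL replicate 1, and its reads are uncertain because immunoglobulin segments have near-identical copies.

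Of the promoter sites with the FLI1 core printed above, P2RX1, an ATP-gated channel gene, had 17 reads in VAL replicate 2, 12 in VAL replicate 1 and 3 in OCI-Ly1. WDR1, an actin disassembly factor gene, had 13, 7 and 3 reads, and the ribosomal protein gene RPL32 had 13, 12 and 4. CYB561 had 13, 8 and 3. MYO7B, a myosin gene, was the one of these 6 with a passing peak in VAL replicate 1, with 12, 17 and 3 reads and a -log10 q of 4.32 in that library. The strongest exonic site was in TRAF5, a signaling adaptor of TNF receptors, with 18 reads in VAL replicate 2, 3 in OCI-Ly1 and none listed in VAL replicate 1. The strongest UTR site, in CLXN, had 9 reads, 1 in OCI-Ly1 and none listed in VAL replicate 1.

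The 41 sites with a passing peak in both VAL libraries had median reads of 14 (VAL replicate 2) and 17 (VAL replicate 1), and 37 had summits within 100 bp of each other. They comprised 19 promoter, 12 intronic and 10 intergenic sites, none in an exon or UTR, and 12 had no listed peak in OCI-Ly1. The FLI1 core was at 8 of them (19.5%, 10.2 to 34.0%), and GGAA, 1 base and an E-box at 14 (34.1%, 21.6 to 49.5%). The last share is a description, because the arrangement was found in sequences of 23 sites, part of them taken for this support. The 14 include the pair in an intron of CCNG2 with the same 30 bases. A pair of the 41 near LMLN shared 1 peak of VAL replicate 1, so they rest on 40 peaks there. At the sites next to MTIF3 and ROCK1P1 the background in VAL replicate 2 was 9.06 and 34.6 reads. The MTIF3 site also had 26 reads in OCI-Ly1 replicate 2, at a fold of 1.89, against 2.18 in VAL replicate 1. At IGKV4-1 the copies of the gene family leave the assignment uncertain.

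Most sites stood alone, with 2167 of 2584 having no other within 25 kb. The group with most sites was around the TSS of CBFA2T3, where 6 sites spanned chr16:89034432-89061807 with 6 to 22 reads. 2 of them overlapped a listed peak of VAL replicate 1, 1 of these a passing one, and neither a shared peak nor a passing OCI-Ly1 peak lay in the span. At NFATC1, the calcium-regulated factor of lymphocyte activation, 5 sites spanned chr18:77138679-77223817 with 7 to 10 reads, and 3 overlapped a listed peak of VAL replicate 1. Around AHDC1 lay 4 sites with 6 or 7 reads, and around TTC34 lay 4 with 11 to 15 reads at a median background of 1.28. A group of 4 covered copies of PRR20, a gene family whose reads cannot be assigned with certainty.

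Within 3 kb of a TSS of 988 protein coding genes lay at least 1 site, which is 4.9% of the 20162 such genes, and 20.8% had any passing peak of VAL replicate 2 there, so the genes with a site are 23.5% of those 4203. Of the 988, 778 (78.7%) had no other passing promoter peak in VAL replicate 2 or OCI-Ly1 replicate 2, and 166 (16.8%) had a passing OCI-Ly1 peak elsewhere in the same promoter. The gene's strongest site had a passing peak in VAL replicate 1 for 15 of them. Long noncoding RNA genes added 380 and pseudogenes 156.

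In lists of genes chosen for this tissue, 32 of 244 genes found had a site within 3 kb of a TSS (13.1%, against the 4.9% of all coding genes). The lists were chosen with earlier results of these data known, so these shares are a description and no test of enrichment. Any passing peak of VAL replicate 2 lay there at 98 of the 244, against 20.8% of all coding genes, so the lists are richer in passing peaks of any kind. Among genes with a passing peak, 32 of 98 in the lists had a site, against 23.5% of the coding genes. None of the 32 strongest sites overlapped a passing peak of VAL replicate 1. B cell receptor signaling had 7 of 30 genes with a site (23.3%). PLCG2, the phospholipase of the receptor, had 9 reads in VAL replicate 2, a peak of 7 reads in VAL replicate 1 with a -log10 q of 0.556, and no listed peak in OCI-Ly1. PIK3AP1, an adaptor for PI3 kinase, had 9 reads in VAL replicate 2 and 3 in OCI-Ly1, and the kinase gene PIK3CD had 8 beside a second promoter peak that passed in OCI-Ly1. CD72, an inhibitory coreceptor gene, had 7, NFATC1 had 8, and BTK, the Bruton kinase gene, and INPP5D, a lipid phosphatase gene, had 6 each. CD72 also had another promoter peak that passed in OCI-Ly1, with 11 reads.

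The BCL2 family had sites at 3 of 16 genes (18.8%, against 4.9% of all coding genes), and 6 of the 16 had any passing peak of VAL replicate 2. These 3 genes encode proteins that promote cell death, a trait that was not tested against the rest of the list. BAK1 had 14 reads in VAL replicate 2 and 3 in OCI-Ly1, BBC3 had 9 and 4, and BMF had 6 and 3, with no listed peak in VAL replicate 1 at any of them and no other passing promoter peak. Among JAK-STAT genes, 3 of 21 had a site (14.3%), and 7 of the 21 had any passing peak of VAL replicate 2. IL21R had 12 reads and no listed peak in the other libraries, IL4R had 6 with 3 in OCI-Ly1, and JAK3 had 6 with none listed in the others. IL21R also held GGAA, 1 base and an E-box.

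Surface and homing genes had a site at 3 of 28 (10.7%, against 4.9% of all coding genes). ICAM1, an adhesion molecule, had 10 reads in VAL replicate 2, 4 in OCI-Ly1 and the FLI1 core. CD38 had 8 reads in VAL replicate 2, 5 in VAL replicate 1 and 2 in OCI-Ly1, and CXCR4, a homing receptor, had 6 and 8 reads in the VAL libraries and no listed OCI-Ly1 peak. NF-kB and TRAF genes had 4 of 32 (12.5%), with 6 to 8 reads at TRAF3, TRAF4, TRAF5 and NFKBIE. At TRAF4 another promoter peak passed in OCI-Ly1 with 17 reads. Chromatin regulators had 4 of 19 (21.1%), namely ARID1A, BCOR, KMT2C and H1-5, each with 6 reads. ARID1A, BCOR and KMT2C also had a shared peak in the promoter, with a passing OCI-Ly1 promoter peak at the last 2 of these. Cell cycle genes had 4 of 34 (11.8%), led by CDC25C with 8 reads, and at CDC25C and PKMYT1 another promoter peak passed in OCI-Ly1.

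Of 25 germinal centre and plasma cell regulators, PAX5 and GNA13 had a site (8.0%, against 4.9% of all coding genes) with 6 reads each, and PAX5 also had a passing OCI-Ly1 promoter peak of 6 reads. ETV6 was the one of 21 ETS family genes with a site (4.76%), at 7 reads, and HLA-DMA the one of 24 MHC genes (4.17%), also at 7, and both shares are near that of all coding genes. With 6 to 8 reads in 1 library, these differences between the lines lie within counting error.

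Local peak density was compared between the lists. In 1 Mb bins, the listed peaks of VAL replicate 2 were at least 2 times those of OCI-Ly1 replicate 2, relative to the totals, for 12 sites (0.464%), and 12 of 15 passing peaks there were sites. At 5 of these 12, in the first bin of chromosome 8, VAL replicate 2 had 522 listed peaks and OCI-Ly1 replicate 2 had 97. At the other end, bins with a ratio below 0.5 held 22 sites (0.851%) of 33 passing peaks. Bins with ratios from 0.8 to 1.25 held 77.6% of the sites, and there 38.7% of the passing peaks were sites. Copy number was not measured, and its part in these counts was not tested.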

How the data were processed

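FLI1 ChIP-Seq peak lists of VAL (replicates 1 and 2) and OCI-Ly1 (replicate 2) were used. The authors mapped reads to GRCh37 with bowtie2 and kept unique, deduplicated reads of mapping quality 10 or more with SAMtools. Peak calling with HOMER (FDR 0.001) is stated in the methods, BWA and CASAVA 1.4 in the submitters' processing notes, and the 10-column lists hold peaks with p-values up to 0.05, so their caller and control are not given in the sources used here. In the deposited lists, fold enrichment is a ratio to the local background, the p-value and q-value are given as -log10, and the score was not used.

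The members and gene lists were chosen with earlier results of these data known. Reads and background were inferred from fold = (reads + 1) / (background + 1) and a Poisson p-value. Read totals were not used, so depth is known through these values: a peak passed with 6 reads in VAL replicate 2 and OCI-Ly1 replicate 2, and 8 in VAL replicate 1. Peak centres were classed with GENCODE release 44 on GRCh37. Motifs were searched on both strands within 50 bp of the summit. Shares have Wilson intervals and differences Newcombe intervals, both at 95%, for counting error only; no p-value was computed, since peaks of 1 library are not replicates. Nothing in the labels says whether replicates came from separate cultures.

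The text names the 15 sites with the highest -log10 q, the 15 with the strongest VAL replicate 1 peak, the 10 groups with most sites, the strongest site of each class, list genes with a site and the strongest sites with the FLI1 core, and not all of these are described. The arrangement with the E-box and the sites holding it were chosen after their sequences were seen. Overlap, motif, interval and class steps were checked on simulated data. Alternatives changed the q-value, fold, overlap, replicate, promoter, motif and bin settings. OCI-Ly1 replicate 1 was used in 1 alternative, and the input DNA not at all. Computation was done with pandas 2.3.3 and scipy 1.17.1 in python 3.11.15, with numpy 2.4.6 beneath them, and plots with matplotlib 3.10.9.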

Additional observations from a re-analysis of the deposited data

How the results depend on the processing

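The differences from shared peaks in VAL replicate 1 support and in the FLI1 core kept their sign, with intervals excluding 0, under each alternative that gave a value. So did the promoter share, except when OCI-Ly1 replicate 1 also counted: the difference was then -3.96 points (-14.6 to 5.55), with 85 sites left, 77 genes with a promoter site and 0% in dense bins. The number of sites, 2584, depended on the rule: 549 at a -log10 q of 5 and 88 at 10 in VAL replicate 2, 858 with no listed OCI-Ly1 peak, 3916 with no passing one, 245 without VAL replicate 2 and 41 passing in both VAL libraries. Genes of any kind with a promoter site, 1648, moved with it to 418, 59, 459, 3080, 64 and 24, and to 1067 at 1 kb. The share in dense bins, 0.464%, became 1.09% and 0% at those q-values, 0.816% with no listed OCI-Ly1 peak, 0% without VAL replicate 2, 0% passing in both, 2.52% at a ratio of 1.5 and 0.194% at 3. Leaving out peaks near assembly gaps, or with a background of 1 read or more, both chosen after seeing the data, gave 2468 and 2505 sites. No paired analysis was possible because the results come from no test between groups and OCI-Ly1 replicate 1 gives no sites.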

Other observations

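The share of sites differed between chromosomes. Of the passing peaks of VAL replicate 2, 55.6% on chromosome X were sites absent in OCI-Ly1 (85 of 153, 47.6 to 63.2%), as were 50.5% on chromosome 18 and 122 of 244 on chromosome 10, against 29.9% on chromosome 7 and 30.1% on chromosome 19. The listed peaks of VAL replicate 2 relative to OCI-Ly1 replicate 2 were 1.33 times the ratio of the totals on chromosome X and 1.29 times on chromosome 7, which had the highest and the lowest share. On chromosome Y this value was 0.272, from 1823 and 7523 listed peaks, and 9 of 26 passing peaks there were sites.

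The same rule applied to VAL replicate 1 gave a largely different set. Of its 973 passing peaks, 245 (25.2%) overlapped no OCI-Ly1 replicate 2 peak with a -log10 q of at least 1. Of these 245, 39 overlapped a site described here and 146 overlapped any listed peak of VAL replicate 2.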
